A study of Mus musculus with 9 samples.

Results

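The genes described here are 10 glutathione and antioxidant genes: *Mgst1*, *Mgst2*, *Mgst3*, *Gstm1*, *Gsr*, *Gclc*, *Gclm*, *Gpx1*, *Prdx5*, and *Nfe2l2*. They were taken by name, and each was read from its brightest probe set on average among those that name it alone. Of the 10, 9 were measured, each by 1 probe set, among 19937 genes in all. *Prdx5*, which encodes a peroxiredoxin that removes peroxides, was not measured here because the platform annotation used gives it no probe set of its own. *Mgst1* was chosen by its low log2 intensity in R3, so its differences between R3 and the other populations are given as a description with no test. For the other members, it is not recorded whether their values played a part in the choice. All members were chosen with earlier results of these data known.

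Expression was measured on Affymetrix Mouse Gene 1.0 ST arrays hybridized with cDNA amplified from 1 ng RNA per sample. All cells were Ly6Chi CD115+ and came from the BM of untreated C57Bl/6 mice at 8 weeks of age. They were divided into 3 populations with 3 arrays each: R3 (Flt3+CD11c+), which the study classes as pre-DCs, R2 (Flt3+CD11c-), and R1 (Flt3-CD11c-), both of which it classes as monocytes. The study compared the populations to learn how the monocytes and the DC precursors of this gate differ. Each of the 3 dates in the labels holds 1 array of every population, and the replicate number stands for the date. The sources used here do not say whether arrays came from separate mice, so p-values describe only the spread among these arrays, part of which may be technical.

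Glutathione is a small peptide that cells use to neutralize reactive compounds. Glutamate-cysteine ligase, made of GCLC and GCLM, performs the limiting step of its synthesis. Transferases join glutathione to reactive compounds, peroxidases spend it to reduce peroxides, and glutathione reductase (GSR) restores the oxidized form with electrons from NADPH. NRF2, encoded by *Nfe2l2*, pairs with small MAF proteins on antioxidant response elements near many of these genes and is held in check by KEAP1. Myeloid cells are exposed to oxidants that they make themselves while killing microbes.

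The sort markers followed the gates for CD11c. *Itgax*, which encodes CD11c, averaged 10.78 ± 0.08 in R3, 5.84 ± 0.47 in R2, and 5.21 ± 0.13 in R1 (log2 intensity, SD, n = 3 each). *Flt3* averaged 11.04 ± 0.05 in R3, 7.91 ± 0.18 in R2, and 7.23 ± 0.52 in R1, and its R2 and R1 levels, which the gate separates, did not differ past the threshold (limma adjusted p = 0.281). All 7 markers of DC precursors were higher in R3 in both comparisons. Of 7 monocyte markers, R3 had 4 lower than R2 and 5 lower than R1, and their summed linear intensity was 6930 to 7970 in R3, 13900 to 14800 in R2, and 15000 to 16900 in R1. Of 16 neutrophil and granule markers, R3 had 7 lower than R2 and the same number lower than R1, with none higher, namely *Elane*, *Mpo*, *Prtn3*, *Ctsg*, *Mmp8*, *Cebpe*, and *Fcnb*. The secondary granule genes *Camp*, *Ltf*, and *Ngp* averaged higher in R3, by 0.86, 1.63, and 2.07 (log2) than in R2 and by 1.98, 1.74, and 2.89 than in R1, without passing the test (adjusted p from 0.0985 to 0.772). *Lcn2*, *S100a8*, and *S100a9* of the same list averaged lower in R3. For them R3 minus R2 was -1.15, -1.42, and -0.83, and R3 minus R1 was -1.08, -1.09, and -0.30. These did not pass either (limma adjusted p from 0.266 to 0.856). The summed intensity of the 16 was 18800, 2590, and 8840 in R3 replicates 1 to 3, 24000 to 30400 in R2, and 16500 to 26000 in R1, so R3 replicate 1 lay within the range of R1. *Ltf* measured 8.92, 4.93, and 7.03 in R3 replicates 1, 2, and 3. The 5 erythroid markers measured had sums of 221 to 260 over all arrays, with none past the threshold in the R3 comparisons, adjusted or not. *Cd163* was the 1 of 8 resident macrophage markers called (higher in R3), *Nkg7* the 1 of 9 lymphoid markers (lower in R3), and *Mcpt8* the 1 of 6 basophil and mast cell markers (lower in R3 than in R2). No marker list is at 0, because array intensities hold background.

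*Mgst2*, *Gstm1*, *Gsr*, and *Nfe2l2* were lower in R3 than in both monocyte populations, and *Mgst3*, *Gclc*, *Gclm*, and *Gpx1* did not pass the test. *Mgst1*, chosen by its low R3 level, is left out of the counts and medians of the R3 comparisons. In R3 versus R2, 4 of the 8 tested members were called lower and 0 higher, where 4.69% of all genes were called lower, 4.85% higher, and 9.55% in either direction. In R3 versus R1, the count was again 4 of 8 lower and 0 higher, against 7.02% of all genes lower, 6.49% higher, and 13.5% in either direction. Calls are by limma at an adjusted p under 0.05 (Benjamini-Hochberg over 19937 genes), and both comparisons use the same R3 arrays. Because the members were chosen with earlier results known, these counts are a description and no test of the list. In R2 versus R1, limma called 0 of 9 members and 0.391% of all genes (0.181% lower and 0.211% higher in R2). At an unadjusted p under 0.05, limma gave 1 member in R2 versus R1 (*Nfe2l2*), and the unpaired test of the study's methods gave 0. The median member difference was -0.46 (R3 minus R2, 8 members), -0.53 (R3 minus R1, 8 members), and 0.05 (R2 minus R1, 9 members), where the medians over all genes were -0.01, -0.02, and -0.02 on the log2 scale. In sorted bulk samples, fewer cells of a type and less RNA per cell cannot be told apart. The 4 or 5 lower monocyte markers and the 7 lower granule markers in R3 move with these differences, and their part in them was not tested.

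**Figure D1:**
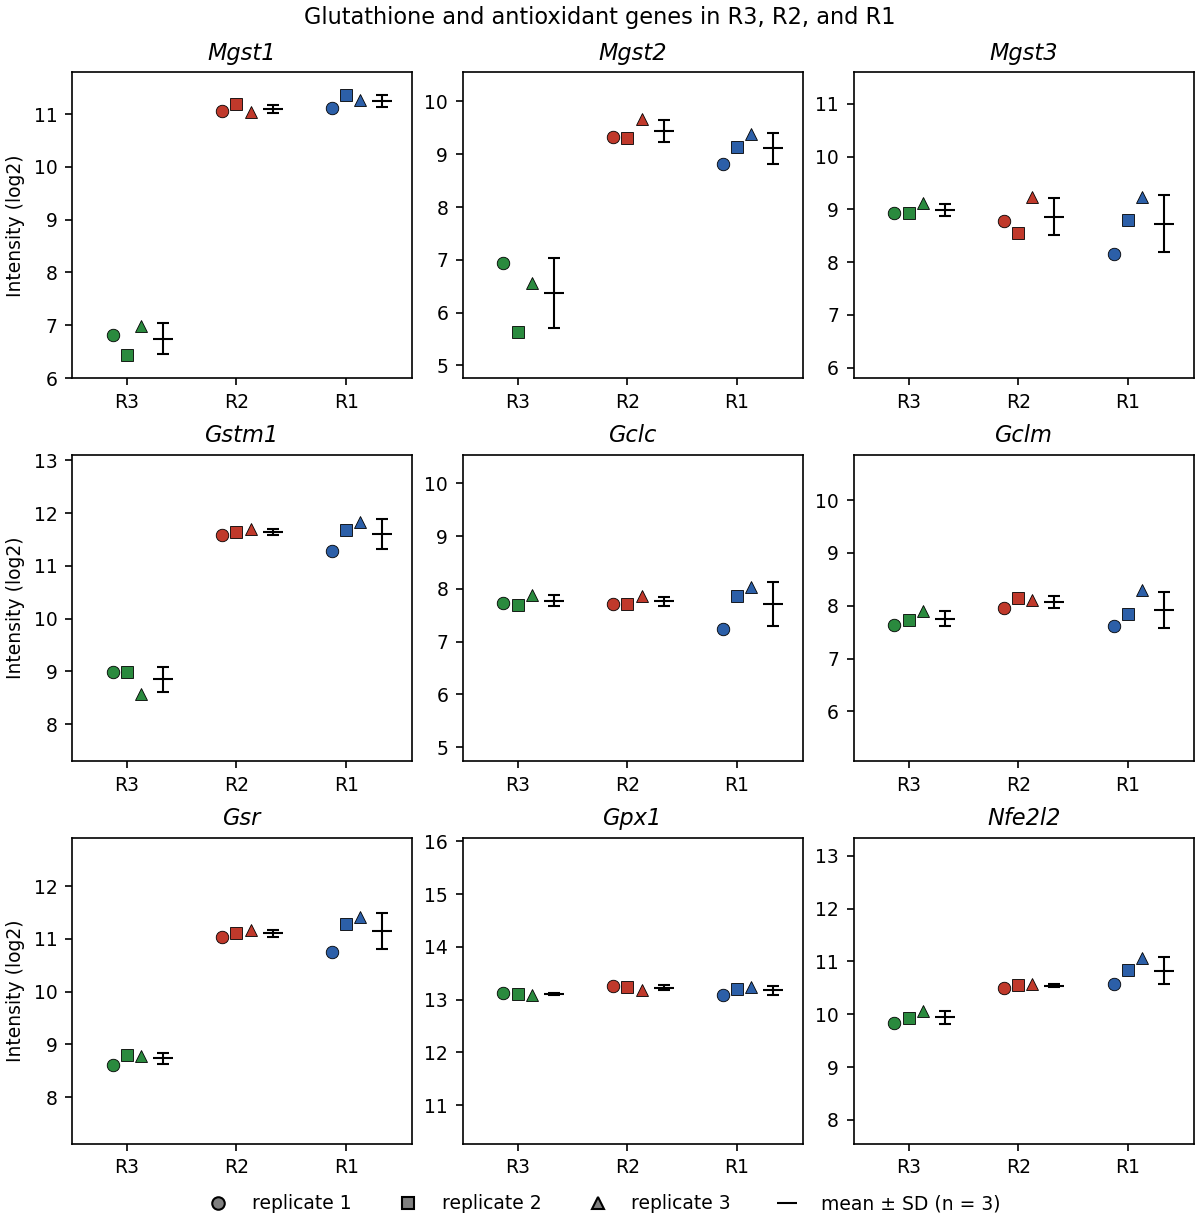
Log2 intensity of the 9 measured genes in R3, R2, and R1, with 1 symbol per array and the mean ± SD of 3 arrays beside each population; every panel spans the same number of log2 units. The R3 arrays lie below all other arrays for *Mgst1*, *Mgst2*, *Gstm1*, *Gsr*, and *Nfe2l2*, and R1 replicate 1 is the lowest R1 array in every panel.

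Sequences upstream of these genes are shown because NRF2 acts on antioxidant response elements. Whether NRF2 has a part in the R3 differences was not tested. RefSeq windows (GRCm38.p6) of 250 bases before the transcript start were matched for 8 of the 10 genes. *Gsr* and *Gclc* had no window in the reference used and were not searched. Capitals mark the core of the antioxidant response element, searched as TGACNNNGC on both strands, where N is any base. The *Mgst1* window (chr6:138140277-138140526, plus strand) holds 1 match on the other strand at 56 to 48 bases before the start, and the second *Mgst1* window of the table (chr6:138141337-138141586, plus strand) holds none. The *Gclm* window (chr3:122245307-122245556, plus strand) holds 1 on the other strand at 134 to 126 bases, and the *Nfe2l2* window (chr2:75704664-75704913, minus strand) holds 1 on its own strand at 240 to 232 bases. The windows of *Mgst2* (chr3:51660929-51661178, plus strand) and *Gstm1* (chr3:108017819-108018068, minus strand) are given as members lower in R3 without these letters, which the second *Gstm1* window (chr3:108017974-108018223, minus strand) does not hold either.
Mgst1: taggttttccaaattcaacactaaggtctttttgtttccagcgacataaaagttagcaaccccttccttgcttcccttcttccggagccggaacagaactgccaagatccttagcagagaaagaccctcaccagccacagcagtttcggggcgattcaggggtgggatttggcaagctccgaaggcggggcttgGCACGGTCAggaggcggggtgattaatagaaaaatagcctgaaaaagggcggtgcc
Mgst2: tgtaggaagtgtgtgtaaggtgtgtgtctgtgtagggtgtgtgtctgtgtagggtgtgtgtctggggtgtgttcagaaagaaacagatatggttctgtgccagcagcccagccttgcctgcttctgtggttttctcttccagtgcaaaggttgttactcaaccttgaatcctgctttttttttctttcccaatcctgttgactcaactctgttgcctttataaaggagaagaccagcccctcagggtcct
Gstm1: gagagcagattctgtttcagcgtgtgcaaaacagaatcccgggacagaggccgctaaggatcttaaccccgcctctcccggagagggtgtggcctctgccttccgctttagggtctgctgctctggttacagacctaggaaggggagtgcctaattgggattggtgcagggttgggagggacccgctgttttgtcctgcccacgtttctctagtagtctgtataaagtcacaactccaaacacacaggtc
Gclm: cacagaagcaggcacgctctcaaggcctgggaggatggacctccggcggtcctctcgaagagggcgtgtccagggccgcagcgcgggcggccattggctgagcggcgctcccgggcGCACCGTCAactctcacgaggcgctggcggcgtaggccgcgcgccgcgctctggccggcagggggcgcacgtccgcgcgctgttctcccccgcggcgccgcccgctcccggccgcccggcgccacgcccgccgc
Nfe2l2: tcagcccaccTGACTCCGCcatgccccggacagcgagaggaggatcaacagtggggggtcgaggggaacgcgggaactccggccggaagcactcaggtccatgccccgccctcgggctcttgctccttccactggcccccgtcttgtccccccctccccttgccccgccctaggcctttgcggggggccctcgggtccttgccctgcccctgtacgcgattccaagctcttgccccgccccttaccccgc
All are written 5′ to 3′ on the gene's own strand. Of all 32851 windows in the table, 10.2% hold such a match. A match is a description of letters and not a bound site, and among the members it occurs both in genes lower in R3 (*Mgst1*, *Nfe2l2*) and in *Gclm*, which was not called. The letters GAGGAAGT, a motif of PU.1, a transcription factor whose amounts the study examined in these cells, were searched on both strands too and occur in 2.44% of all windows and in none of the 10 windows of the members.

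*Mgst1* had the largest drop in R3 of the members. MGST1 is a membrane-bound transferase of the endoplasmic reticulum and outer mitochondrial membrane that also reduces lipid peroxides. Its probe set (10542470) measured 6.82, 6.43, and 6.99 in R3, 11.06, 11.20, and 11.05 in R2, and 11.12, 11.36, and 11.27 in R1 (log2 intensity, replicates 1 to 3). The 3 R3 arrays lay far below the 6 monocyte arrays, among which R2 and R1 overlapped. The means were 6.75 ± 0.29 in R3, 11.10 ± 0.08 in R2, and 11.25 ± 0.12 in R1. R3 minus R2 was -4.35, a level 20.4-fold lower, and R3 minus R1 was -4.50, a level 22.7-fold lower. *Mgst1* ranked 4 from the lowest of 19937 differences in each of these comparisons. Within the 3 dates, R3 minus R2 was -4.24, -4.76, and -4.06, so no date carried the drop alone. Without R3 replicate 1, the R3 array with the highest summed intensity of the neutrophil and granule marker list, it was -4.39. R2 minus R1 was -0.15 (95% CI -0.45 to 0.15, adjusted p = 0.777).

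*Mgst2*, whose product conjugates glutathione and can form leukotriene C4, had the next largest drop in R3 versus R2. It measured 6.93, 5.64, and 6.55 in R3, 9.33, 9.30, and 9.67 in R2, and 8.81, 9.14, and 9.39 in R1. Every R3 array was below every monocyte array, and R3 replicate 2 was the lowest of the 9. The R3 mean of 6.37 ± 0.67 had the widest spread of any member in any population, against 9.43 ± 0.21 in R2 and 9.11 ± 0.29 in R1. *Mgst2* was 8.34-fold lower in R3 than in R2 (log2 difference -3.06, SE 0.29, limma adjusted p = 0.000169) and 6.68-fold lower in R3 than in R1 (-2.74, SE 0.29, adjusted p = 0.00026). The size varied by date more than for *Mgst1*, with R3 minus R2 at -2.39, -3.66, and -3.12. With the unpaired test of the study's methods, the call in R3 versus R1 was lost (adjusted p = 0.0650). R2 exceeded R1 by 0.32 (95% CI -0.35 to 0.99, adjusted p = 0.788), with overlapping arrays.

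*Mgst3* did not share this pattern. MGST3 belongs to the same membrane family and has glutathione peroxidase activity. It measured 8.93, 8.92, and 9.11 in R3, 8.78, 8.55, and 9.24 in R2, and 8.15, 8.80, and 9.24 in R1. The populations overlapped throughout, and R1 replicate 1 was the lowest array. The differences came to 0.13 in R3 versus R2 (95% CI -0.45 to 0.71, adjusted p = 0.885), 0.26 in R3 versus R1 (-0.33 to 0.84, adjusted p = 0.631), and 0.13 in R2 versus R1 (-0.45 to 0.71, adjusted p = 0.916). Its R3 intervals did not reach those of *Mgst2*, whose upper ends were -2.39 against R2 and -2.07 against R1.

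*Gstm1*, a cytosolic transferase of the mu class that detoxifies electrophiles, measured 8.98, 9.0, and 8.56 in R3, 11.59, 11.65, and 11.70 in R2, and 11.28, 11.67, and 11.84 in R1. All R3 arrays were below all monocyte arrays, and the R2 arrays lay within the range of R1. *Gstm1* was 6.96-fold lower in R3 than in R2 (log2 difference -2.80, SE 0.16, adjusted p = 6.55e-06) and 6.74-fold lower in R3 than in R1 (-2.75, SE 0.16, adjusted p = 5.1e-06). The R2 to R1 difference was 0.05 (95% CI -0.30 to 0.40, adjusted p = 0.954). Mu-class genes are related in sequence, so a probe set of one may also read another.

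The 2 subunits of glutamate-cysteine ligase were not called in any comparison. *Gclc*, the catalytic subunit, measured 7.74, 7.70, and 7.89 in R3, 7.72, 7.71, and 7.86 in R2, and 7.24, 7.87, and 8.04 in R1. Its R3 and R2 arrays were close to each other at each date, and R1 replicate 1 lay below the rest. The R3 minus R2 difference of 0.01 had a 95% CI of -0.39 to 0.42 (adjusted p = 0.989), R3 minus R1 was 0.06 (-0.34 to 0.47, adjusted p = 0.890), and R2 minus R1 was 0.05 (-0.36 to 0.45, adjusted p = 0.960). *Gclm*, the modifier subunit, measured 7.63, 7.73, and 7.90 in R3, 7.95, 8.15, and 8.11 in R2, and 7.63, 7.85, and 8.29 in R1. The 3 R3 arrays were below the 3 R2 arrays, while R1 spanned both. The R3 minus R2 difference of -0.32 (95% CI -0.67 to 0.04) did not pass (adjusted p = 0.328), nor did R3 minus R1 (-0.16, 95% CI -0.52 to 0.19, adjusted p = 0.607) or R2 minus R1 (0.15, 95% CI -0.20 to 0.50, adjusted p = 0.815).

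*Gsr*, which encodes glutathione reductase, was lower in R3, with little spread in R3 and R2 and more in R1 (SD 0.10, 0.07, and 0.35). It measured 8.62, 8.81, and 8.78 in R3, 11.03, 11.11, and 11.17 in R2, and 10.76, 11.27, and 11.42 in R1. The R3 arrays were all below the monocyte arrays, and R2 lay within R1. *Gsr* was 5.18-fold lower in R3 than in R2 (log2 difference -2.37, SE 0.15, adjusted p = 1.42e-05) and 5.34-fold lower in R3 than in R1 (-2.42, SE 0.15, adjusted p = 8.9e-06). Within dates, R3 minus R2 was -2.42, -2.31, and -2.39, and R3 minus R1 was -2.14, -2.47, and -2.64. R2 minus R1 was -0.05 (95% CI -0.39 to 0.30, adjusted p = 0.955).

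*Gpx1*, the cytosolic selenoenzyme that reduces hydrogen peroxide, was nearly level across populations. It measured 13.13, 13.11, and 13.09 in R3, 13.25, 13.24, and 13.17 in R2, and 13.08, 13.19, and 13.24 in R1. The R3 arrays lay below the R2 arrays by a small margin and overlapped R1. R3 minus R2 was -0.11 (95% CI -0.26 to 0.03, adjusted p = 0.423), R3 minus R1 was -0.06 (-0.21 to 0.09, adjusted p = 0.647), and R2 minus R1 was 0.05 (-0.10 to 0.20, adjusted p = 0.858). These were the narrowest intervals of any member, and they exclude a 2-fold change.

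*Nfe2l2* was lower in R3 by less than *Mgst1*, *Mgst2*, *Gstm1*, and *Gsr*. It measured 9.83, 9.92, and 10.07 in R3, 10.50, 10.55, and 10.57 in R2, and 10.57, 10.84, and 11.07 in R1. It is the only member whose 3 populations did not overlap in any comparison, with R3 lowest, R2 between, and R1 highest. The gap between R2 and R1 was very thin, from 10.568 in R2 replicate 3 to 10.571 in R1 replicate 1. *Nfe2l2* was 1.52-fold lower in R3 than in R2 (log2 difference -0.60, SE 0.12, adjusted p = 0.0122) and 1.85-fold lower in R3 than in R1 (-0.89, SE 0.12, adjusted p = 0.00108). The call in R3 versus R2 was lost without R3 replicate 1 (adjusted p = 0.0512), without R2 replicate 3 (0.0526), and without the arrays of replicate 2 (0.211). In R3 versus R1, it was lost with the methods' unpaired test (0.0873) and without the arrays of replicate 2 (0.0614). R2 minus R1 was -0.28 (95% CI -0.56 to -0.01), which did not pass after adjustment (adjusted p = 0.444).

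**Figure D2:**
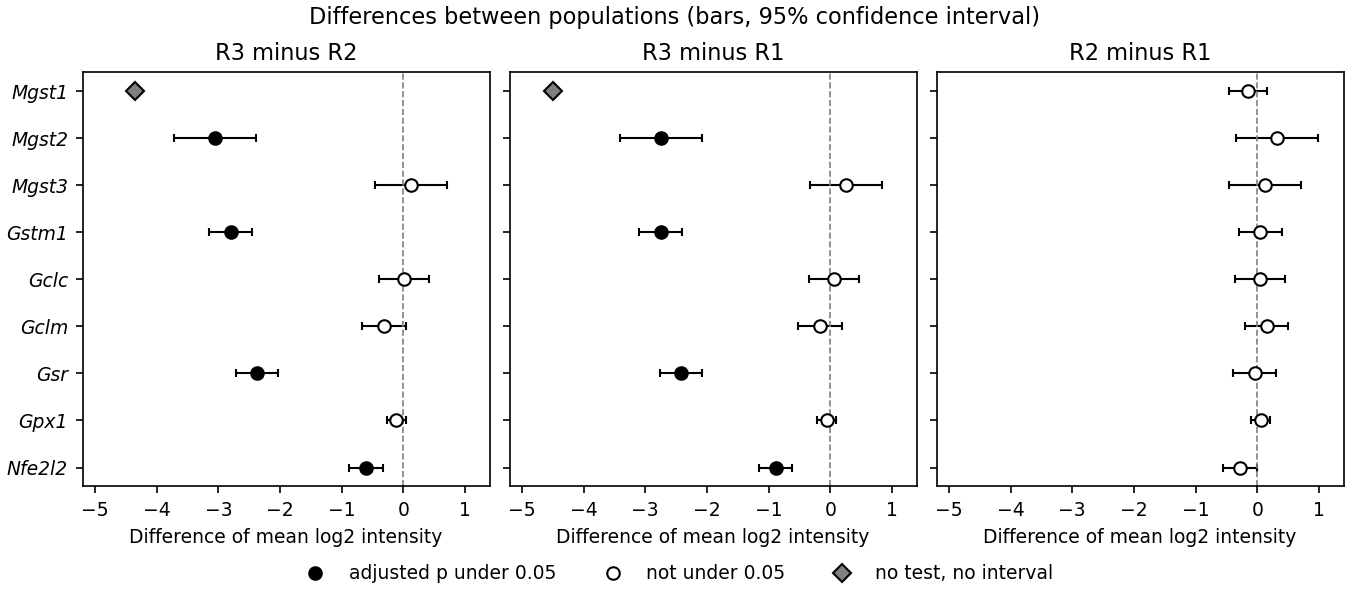
Difference of mean log2 intensity for each measured gene in R3 minus R2, R3 minus R1, and R2 minus R1, with 95% confidence intervals from limma; filled circles are called, open circles are not, and *Mgst1* (grey diamond) has no test and no interval in the R3 comparisons. The 4 lowest genes (*Mgst1*, *Mgst2*, *Gstm1*, and *Gsr*) lie between -4.50 and -2.37 in both R3 comparisons, and no gene is called in R2 minus R1.

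With *Mgst1* left out again, 6 of 8 members had all R3 arrays below all R2 arrays, where 12.2% of all genes did (12.6% had them all above, 24.8% in either direction). Against R1, 4 of 8 had all R3 arrays below, where 12.9% of all genes did (11.6% above, 24.5% in either direction). In R2 versus R1, 1 of 9 had all R2 arrays lower, *Nfe2l2*, where 7.99% of all genes did (5.44% higher, 13.4% in either direction). *Gclm* and *Gpx1* were separated in R3 versus R2 but overlapped in R3 versus R1. R1 replicate 1 was the lowest R1 array for 9 of 9 members, where it was the lowest for 40.2% of all genes. Its median deviation from the R1 mean was -0.30 over the members and 0.00 over all genes. The SDs of *Mgst3*, *Gclc*, *Gsr*, and *Gstm1* were 0.35, 0.09, 0.07, and 0.05 in R2 and 0.55, 0.42, 0.35, and 0.29 in R1. Without R1 replicate 1, R3 minus R1 was -4.57 for *Mgst1*, -2.89 for *Mgst2* (limma adjusted p = 0.00102), and -2.91 for *Gstm1* (adjusted p = 1.31e-05). It was -2.61 for *Gsr* (limma adjusted p = 5.84e-06) and -1.02 for *Nfe2l2* (adjusted p = 0.000379). Leaving out the lowest R1 array can only raise the R1 mean, so larger drops were fixed in advance and are no check. The 4 uncalled members remained uncalled.

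Over the 9 arrays, with each gene set on its own mean, the genes nearest to *Mgst1* by root mean square difference were *Gda* (0.203, guanine deaminase), *Aoah* (0.213, which deacylates lipopolysaccharide), *Hp* (0.231, haptoglobin, which binds free hemoglobin), *Mmp8* (0.331, a collagenase of granules), and *Msr1* (0.349, a macrophage scavenger receptor). *Gda* averaged 6.64 ± 0.25 in R3, 10.59 ± 0.04 in R2, and 11.01 ± 0.08 in R1. *Aoah* averaged 5.48 ± 0.28 in R3, 9.44 ± 0.19 in R2, and 9.56 ± 0.10 in R1, and *Hp* averaged 8.33 ± 0.36 in R3, 12.22 ± 0.03 in R2, and 12.39 ± 0.15 in R1. All 5 were low in R3 and high in both monocyte populations, which follows from choosing them by likeness to *Mgst1*. *Mmp8* and *Msr1* belong to the granule and monocyte marker lists. Of the members, *Mgst2* was nearest to *Mgst1* (0.794, rank 37), then *Gstm1* (0.825, rank 40), *Gsr* (0.982, rank 62), and *Nfe2l2* (1.74, rank 564), while *Gclm*, *Gpx1*, *Gclc*, and *Mgst3* ranked 2259, 5260, 13209, and 17373. This likeness is a description over 9 arrays that share populations and dates.

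**Figure D3:**
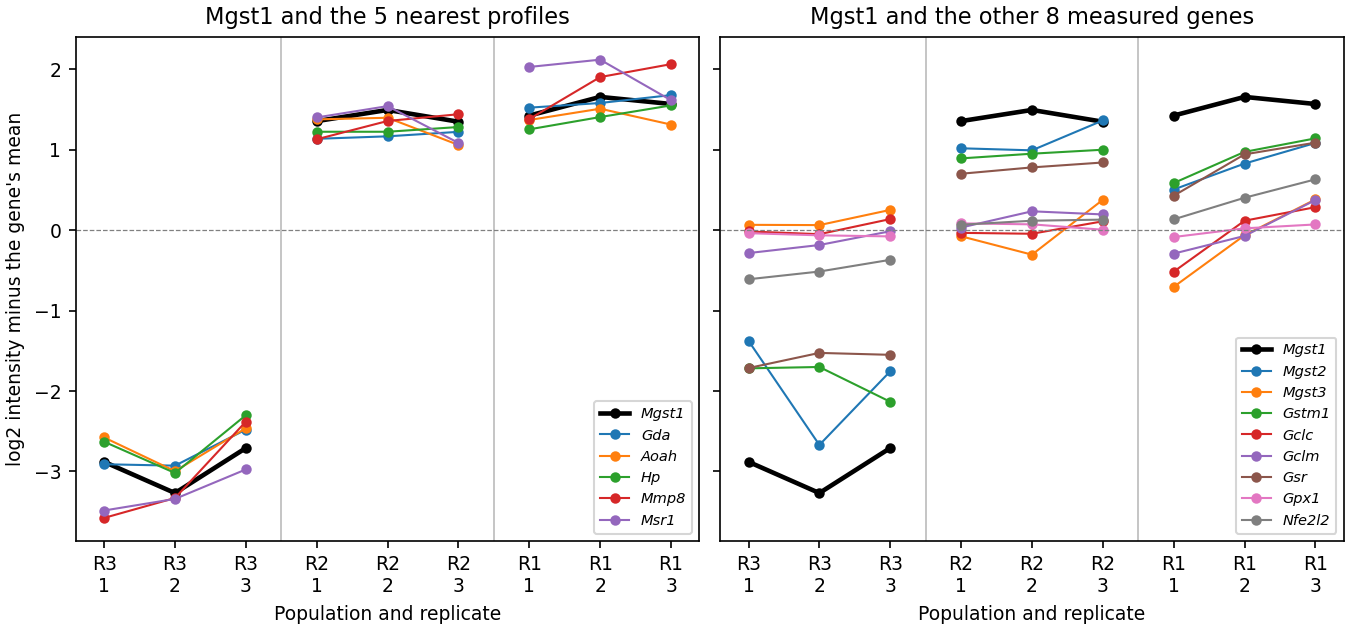
Log2 intensity minus the gene's own mean over the 9 arrays, by population and replicate, for *Mgst1* with the 5 genes nearest to it (left) and with the other 8 measured members (right); lines join arrays of 1 population only. The 5 nearest genes, chosen by likeness to *Mgst1*, lie with it in all 3 populations. *Mgst2*, *Gstm1*, and *Gsr* drop in R3 by less, and *Mgst3*, *Gclc*, *Gclm*, and *Gpx1* stay near 0.

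Beyond the members, 89 of 95 listed genes of the same pathways were measured. In R3 versus R2, 4 were called higher and 22 lower, and in R3 versus R1, 4 higher and 26 lower, beside the shares of all genes given above. In R2 versus R1, limma called 0 of 89, with 11 at an unadjusted p under 0.05, and the unpaired test of the study's methods also called 0 after adjustment, with 4 unadjusted. The median difference of these 89 genes was -0.16 in R3 minus R2 and -0.21 in R3 minus R1.

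Among 17 other glutathione transferases, 1 was higher and 4 lower in R3 when set against R2, and 0 higher and 6 lower when set against R1. *Gstm3* measured 5.38, 5.68, and 5.43 in R3, 7.43, 7.43, and 7.42 in R2, and 7.24, 7.45, and 7.59 in R1 (R3 minus R2 -1.93, adjusted p = 6.17e-06, R3 minus R1 -1.93, adjusted p = 4.23e-06). *Gstm4* was lower by a like amount (-1.68, adjusted p = 1.74e-05, and -1.86, adjusted p = 6.72e-06). Both are of the mu class, as are *Gstm1* and *Gstm2*, which was lower in R3 than in R1 (-0.83, adjusted p = 0.0243), and their probe sets may share signal. *Gstt2*, of the theta class, was lower in R3 than in R2 (-0.61, adjusted p = 0.0227) and R1 (-0.81, adjusted p = 0.00389). *Gstk1*, which encodes the mitochondrial and peroxisomal kappa enzyme, was higher in R3 than in R2 (1.08, adjusted p = 0.0480), a call that was lost on leaving out any 1 R3 or R2 array (adjusted p up to 0.279 over the alternatives) and with the label date as a block (adjusted p = 0.0578). Of the 3 other relatives of the MGST proteins (*Ltc4s*, *Alox5ap*, and *Ptges*), which act in leukotriene and prostaglandin synthesis, limma called 0, and at an unadjusted p under 0.05 it gave 0 in R3 versus R2 and 1 in R3 versus R1, as did the methods' unpaired test. The largest differences among them were -0.11 for *Ltc4s* in R3 minus R2 and -0.24 for *Alox5ap* in R3 minus R1 (adjusted p = 0.0559).

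Of 11 further genes of glutathione synthesis, cystine uptake, and turnover, limma called 0 in each comparison, and 0 had an unadjusted p under 0.05 in any of them (1 with the methods' unpaired test, in R3 versus R2). The largest R3 difference was that of *Slc3a2*, which encodes the heavy chain of the cystine transporter, with 0.33 in R3 minus R2 (adjusted p = 0.593) and 0.38 in R3 minus R1 (adjusted p = 0.435). Of 5 NADPH supply genes measured, 2 were lower in R3 in both comparisons. *Pgd*, of the pentose phosphate pathway, measured 9.53, 9.50, and 9.65 in R3, 11.17, 11.10, and 11.23 in R2, and 11.08, 11.24, and 11.58 in R1, and was 3.04-fold lower in R3 than in R2 (adjusted p = 3.77e-05) and 3.34-fold lower in R3 than in R1 (adjusted p = 1.6e-05). *Idh1*, the cytosolic isocitrate dehydrogenase, was 2.59-fold lower in R3 than in R2 (adjusted p = 3.44e-05) and 3.07-fold lower in R3 than in R1 (adjusted p = 8.81e-06). The other 3 did not pass.

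Of 7 other glutathione peroxidases, 2 were lower in R3 in both comparisons. *Gpx3*, a secreted enzyme, measured 4.63, 4.46, and 4.91 in R3, 7.50, 7.25, and 7.64 in R2, and 6.79, 7.49, and 8.10 in R1 (R3 minus R2 -2.80, adjusted p = 0.000222, R3 minus R1 -2.79, adjusted p = 0.000179). The R3 arrays did not overlap the others. *Gpx4*, which reduces lipid peroxides in membranes, was lower by 0.88 in R3 than in R2 (adjusted p = 0.000253) and by 0.80 in R3 than in R1 (adjusted p = 0.00037). Of 4 other peroxiredoxins measured, *Prdx1* was lower in both comparisons (-0.64, adjusted p = 0.000576, and -0.60, adjusted p = 0.000728) and *Prdx2* in R3 versus R2 (-0.60, adjusted p = 0.0298). Of 11 thioredoxin and glutaredoxin genes, 2 and 4 were lower. *Glrx*, a glutaredoxin that removes glutathione from protein cysteines, was 3.21-fold lower in R3 than in R2 (adjusted p = 1.17e-05) and 3.54-fold lower in R3 than in R1 (adjusted p = 5.22e-06). *Txn1* (-0.42 in R3 minus R2, adjusted p = 0.00596), *Txnrd1* (-0.71 in R3 minus R1, adjusted p = 0.0492), and *Glrx2* (-0.39 in R3 minus R1, adjusted p = 0.0197) changed less. Of 5 superoxide dismutase and catalase genes, *Sod1* and its copper chaperone *Ccs* were lower in both comparisons, *Sod1* by 0.23 and 0.21 (adjusted p = 0.0359 and 0.0449) and *Ccs* by 0.54 and 0.73 (adjusted p = 0.0129 and 0.00191), given for R3 minus R2 and then R3 minus R1. With the label date as a block, both *Sod1* calls were lost (adjusted p = 0.072 and 0.0808).

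Among 12 partners and inhibitors of NRF2, R3 had 1 higher and 3 lower against R2, with 2 higher and 3 lower against R1. *Bach2*, a repressor that competes for the same class of sites, measured 7.79, 8.07, and 7.93 in R3, 5.96, 5.73, and 6.06 in R2, and 4.90, 5.75, and 5.18 in R1. Its R3 arrays were above all others (R3 minus R2 2.02, adjusted p = 0.000167, R3 minus R1 2.65, adjusted p = 2.31e-05). *Bach1*, the related repressor of heme and iron genes, ran the other way (-0.41, adjusted p = 0.00811, and -0.83, adjusted p = 9.92e-05). *Nfe2*, a relative of *Nfe2l2* known for its role in megakaryocytes, was 3.27-fold lower in R3 than in R2 (adjusted p = 1.42e-05) and 3.57-fold lower in R3 than in R1 (adjusted p = 6.43e-06). The small MAF gene *Mafg* was lower by 0.64 and 0.56 in R3 than in R2 and R1 (adjusted p = 0.00372 and 0.00575), and *Nfe2l3* higher by 0.33 in R3 than in R1 (adjusted p = 0.0495, and 0.0881 with the label date as a block). *Keap1* did not pass (0.05 in R3 minus R2 and -0.08 in R3 minus R1).

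Of 14 further targets of NRF2, R3 had 2 higher and 5 lower against R2, with 2 higher and 6 lower against R1. *Hmox1*, which degrades heme, measured 8.36, 7.85, and 7.52 in R3, 9.66, 9.74, and 10.01 in R2, and 10.43, 10.50, and 10.76 in R1. Like *Nfe2l2*, it had no overlap between any of the populations, with R3 lowest and R1 highest (R3 minus R2 -1.89, adjusted p = 0.000257, R3 minus R1 -2.65, adjusted p = 2.45e-05). *Ugdh*, of glucuronic acid synthesis, was below R2 in R3 by 0.93 (adjusted p = 0.000184) and below R1 by 0.94 (adjusted p = 0.000137), and *Ftl1*, the ferritin light chain, by 0.89 (adjusted p = 0.0147) and 0.97 (adjusted p = 0.00722), with pseudogene copies that its probe set may also read. *Abcc1*, an exporter of glutathione conjugates, was higher in R3 than in R2 (1.24, adjusted p = 0.000813) and R1 (1.37, adjusted p = 0.000339). *Ephx1*, an epoxide hydrolase, was higher as well (0.76, adjusted p = 0.0056, and 0.69, adjusted p = 0.00705).

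**Figure D4:**
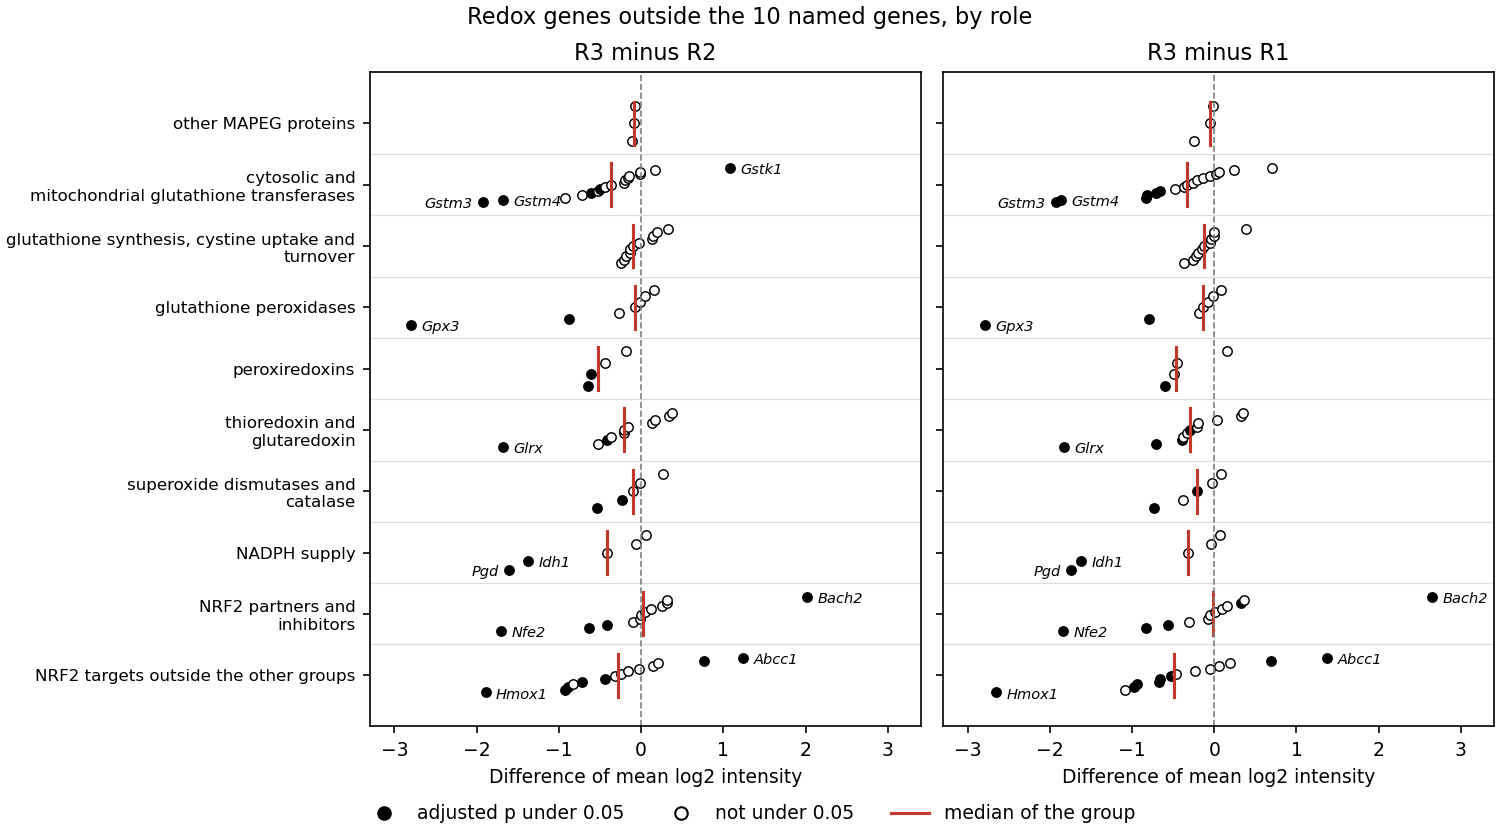
Difference of mean log2 intensity of 89 measured pathway genes outside the members, by role, in R3 minus R2 and R3 minus R1; filled circles are called, open circles are not, and the red line is the median of each group. *Gpx3*, *Hmox1*, *Gstm3*, *Gstm4*, *Nfe2*, *Glrx*, *Pgd*, and *Idh1* lie lowest and *Bach2* and *Abcc1* highest, while synthesis genes cluster near 0.

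Of the 56 pathway calls in the 2 R3 comparisons, 25 held under all 22 alternative settings, 31 were lost under at least 1, and 0 changed direction. Settings that change only the test, such as the methods' t-test, cannot change a direction. *Gstm3*, *Gstm4*, *Gpx4*, *Prdx1*, *Glrx*, *Pgd*, *Idh1*, *Nfe2*, *Bach2*, *Hmox1*, and *Ugdh* held in both comparisons under every one of the 22. The unpaired test of the study's methods lost some calls that held without any 1 array. Among the genes named, *Mafg*, *Ephx1*, and *Abcc1* were lost in this way in both R3 comparisons. *Gpx3* (adjusted p = 0.0581), *Gstp1*, *Gstt2*, *Ccs*, and *Ftl1* were lost in this way in R3 versus R1. *Ephx1* (means 5.75, 4.99, and 5.06 in R3, R2, and R1) was also outside the fit at a minimum mean of 6. The calls lost on leaving out a single array were, among the genes named, *Gstt2* in R3 versus R2 (adjusted p up to 0.16 over all alternatives), *Gstm2* in R3 versus R1 (0.288), *Prdx2* in R3 versus R2 (0.22), *Txn1* in R3 versus R1 (0.249), *Txnrd1* in R3 versus R1 (0.327), *Glrx2* in R3 versus R1 (0.194), *Sod1* in both (0.326 and 0.298), *Ccs* in R3 versus R2 (0.141), *Ftl1* in R3 versus R2 (0.185), *Nfe2l3* in R3 versus R1 (0.339), *Osgin1*, a growth inhibitor induced by oxidative stress, in R3 versus R1 (0.246), and *Gstk1* as given above. In R2 versus R1, the pathway genes of largest difference by role were *Hmox1* (-0.76), *Bach2* (0.64), *Txnip* (-0.51), *Gstm5* (0.44), *Prdx4* (0.33), *Cat* (-0.30), *Gpx2* (0.25), *Slc7a11* (-0.25), *Idh1* (-0.25), and *Alox5ap* (-0.17), none of them past the threshold.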

How the data were processed

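R3, R2, and R1 cells were measured on 9 arrays, 3 per population. Per the labels, cDNA was made with NuGEN kits from 1 ng RNA and labeled with biotin. The values the authors deposited are linear intensities of 34760 probe sets, with array medians of 58.0 to 64.7. The sources used here do not give their background correction, summarization, and normalization. Of the probe sets, 21640 name 1 gene, 1321 several, and 11799 none, and 21553 were matched by Entrez ID to RefSeq (GRCm38.p6). Genes are read from the single-gene probe set of highest mean, giving 19937 genes (954 with more than 1). Values identical in all 3 arrays of a population occur in 1638 probe sets, in 0 of the members' and in *Osgin1* (R2) among called pathway genes. An intensity of one probe set was not set against that of another.

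Log2 intensities were fitted with limma 3.58.1 (R 4.3.3; lmFit, eBayes) with all 3 populations in 1 model and 6 residual degrees of freedom. Benjamini-Hochberg adjustment ran over 19937 genes within each comparison. The script was tested on simulated data. The number of arrays limits the precision. Replicate numbers stand for shared label dates, so they pair the arrays; same-number arrays of different populations correlated at -0.0244 to 0.152 in their deviations and other pairs at -0.15 to 0.0808. Alternatives were a date block, centring, quantile normalization, an offset of 16, a minimum mean of 6, other probe sets, 2 populations only, the methods' t-test, array weights, an intensity trend, and leaving out arrays or dates. The members, gene lists, and tests were chosen with earlier results of these data known. Named genes are all members, the 3 called genes of largest change per pathway group, comparison, and direction (1 where none was called), the 5 nearest to *Mgst1*, and sort markers. *Keap1*, *Osgin1*, *Camp*, *Ltf*, *Ngp*, *Lcn2*, *S100a8*, *S100a9*, and the genes whose call the date block changed were named after their values were seen.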

Additional observations from a re-analysis of the deposited data

How the results depend on the processing

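The drops of *Mgst2*, *Gstm1*, *Gsr*, and *Nfe2l2* in R3 kept their direction under all 22 alternatives. Most of these could not reverse them. All R3 arrays of these genes lay below all monocyte arrays, so leaving out arrays or dates could not. Settings that change only the test, such as the methods' t-test, leave the difference as it is. *Mgst1*, given without a test, ranged from -4.50 to -4.15 in R3 minus R2 and -4.63 to -4.29 in R3 minus R1 with arrays or dates left out. Calls were lost for *Mgst2* and *Nfe2l2* only, as given above, and members called in R3 versus R1 fell to 2 of 8 by the methods' t-test. Members called ranged from 3 to 4 of 8 in both R3 comparisons and were 0 in R2 versus R1 with arrays or dates left out. Genes called in R3 versus R2 numbered 1903, 893 by the t-test, and 757 to 2183 with arrays left out, the lowest without replicate 2. In R3 versus R1, they numbered 2693, 658 by the t-test, and 1117 to 2843 with arrays left out. In R2 versus R1, they numbered 78, 20 with each array centred, 1 with only these populations, 1 by the t-test, 343 with array weights, 46 with an intensity trend, and 0 to 124 with arrays left out. With the label date as a replicate block, which pairs the arrays, genes called in R2 versus R1 were 23, and the block changed no call of a member. Of the pathway calls, it lost those of *Gstk1*, *Sod1*, and *Nfe2l3* given above and gained *Gstp1* (adjusted p = 0.0229) and *Txnrd1* (0.0417) in R3 versus R2 and *Prdx2* (0.0334), *Prdx3* (0.0358), and *Cbr3* (0.0446) in R3 versus R1, leaving 26 and 31. Centring split the calls into 966 higher and 684 lower in R3 versus R2 (967 and 936 uncentred) and 7 higher and 13 lower in R2 versus R1 (42 and 36 uncentred). The alternatives for pathway genes were chosen after seeing the data. Pathway genes called were 26 in R3 versus R2 (14 to 29 with arrays left out), 30 in R3 versus R1 (12 by the t-test, 18 to 35 with arrays left out), and 0 in R2 versus R1 (1 with an offset of 16, 2 with array weights, 0 with arrays left out).

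Changes of sign occurred only in differences that were not called. With array weights, *Gclc* was -0.083 in R3 minus R1, and in R2 minus R1 *Mgst3* was -0.10, *Gstm1* -0.046, and *Gclc* -0.11. With each array centred, *Gstm1* was -0.034, *Gclc* -0.033, and *Gpx1* -0.030 in R2 minus R1. With arrays or dates left out, R3 minus R2 ranged from -0.024 to 0.32 for *Mgst3* and -0.043 to 0.063 for *Gclc*. R3 minus R1 ranged from -0.032 to 0.51 for *Mgst3*, -0.18 to 0.22 for *Gclc*, and -0.31 to 0.021 for *Gclm*. R2 minus R1 ranged from -0.16 to 0.38 for *Mgst3*, -0.11 to 0.17 for *Gstm1*, -0.19 to 0.21 for *Gclc*, -0.24 to 0.089 for *Gsr*, and -0.0080 to 0.11 for *Gpx1*. Apart from what leaving out arrays does to the sample size, the cause of these shifts was not tested. A call that was absent in R2 versus R1 does not show equal levels, and how far background limits dim probe sets cannot be read from these files.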
